A study of Mus musculus with 6 samples.

Results

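Genes of the extracellular matrix and their integrin receptors were compared between the mouse embryonic stem (ES) cell line D3 and the insulin-secreting mouse insulinoma line MIN6. The genes were chosen by symbol alone. They are all collagen, laminin and thrombospondin genes (Col, Lama, Lamb, Lamc or Thbs followed by a digit), all symbols that start with Itga or Itgb, and Fn1, Nid1, Nid2, Hspg2, Sparc, Vtn, Tnc, Agrn and Lum. The rule took 93 of 19057 genes with a symbol of their own, on 210 of 45281 probes. Of the 93 genes, 41 encode collagen chains, 9 laminin chains, 4 thrombospondins, 26 integrin subunits and 9 other matrix glycoproteins or proteoglycans, and 4 (Itgb1bp1, Itgb1bp2, Itgb3bp and Itgbl1) have an integrin name but encode no subunit.

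RNA came from 3 samples of D3 cells at passage 21 and 3 samples of MIN6 cells at passage 23, and each sample was read on its own Illumina Mouse WG-6 v2.0 array. D3 cells were grown on gelatin with serum and leukemia inhibitory factor, which keeps ES cells undifferentiated, and MIN6 cells in serum medium without that factor, so that medium and surface cannot be told apart from cell line. Each cell line stands for a single line as a model of ES cells or of beta cells, and MIN6 cells are tumor cells, derived from mice carrying SV40 T antigen under the insulin promoter. The replicates are called independent in the record of the series but not in the sample labels, so the p-values may measure only the spread between these samples.

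A basement membrane is a thin sheet of matrix under epithelia. Laminins, trimers of an alpha, a beta and a gamma chain, assemble into 1 network on the cell surface, collagen IV forms another, and nidogens, perlecan (Hspg2) and agrin bind to both networks or to the cell. In the early mouse embryo a laminin-rich basement membrane separates the inner cells from the primitive endoderm, and in the pancreas the basement membrane next to beta cells is made largely by blood vessels. Integrins are heterodimers of an alpha and a beta subunit through which cells hold on to laminins, collagens, fibronectin and other ligands, and the pairing of subunits decides which ligand is bound.

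Median signal was between 134.4 and 188.1 on the 6 arrays, and between 34.4 and 35.9% of the probes were above background (detection p under 0.01) on each array. All 10 ES cell markers examined, among them Pou5f1 and Nanog, were lower in MIN6 cells and 9 of them were above background on no MIN6 array. All 10 beta cell markers, among them Ins2 and Pdx1, were higher in MIN6 cells and above background on no D3 array, so the arrays match their labels. Signals were quantile-normalized and are given on the log2 scale. Differences are MIN6 minus D3 from limma over all probes, with Benjamini-Hochberg adjustment over all probes. Each gene was read by its brightest probe (highest mean log2 signal). A call required at least 1.5-fold together with an adjusted p under 0.05. If a cell line had no array on which the brightest probe exceeded background, only a bound on the fold is given ("at least"). The bound sets the mean of the other cell line against the dimmest detected signals of those arrays. It makes no allowance for the spread between arrays, so a bound near 1 can lie within the error of the fit. For Itga4 the bound was 0.10 on the log2 scale and the SE of its fitted difference 0.13. The call and the adjusted p beside such a bound belong to the fitted difference and not to the bound. A called gene can therefore have a bound under 1.5-fold. The precision of every value is limited by having 3 arrays per cell line. In bulk RNA, fewer cells of a kind and less RNA per cell cannot be told apart. The arrays measure RNA only, and neither protein nor deposited matrix can be read from them.

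Matrix and integrin genes were more often lower than higher in MIN6 relative to D3 cells. Of the 93 genes, 25 (26.9%) were downregulated in MIN6 cells, against 17.5% of all genes tested, and 8 (8.60%) were upregulated, against 17.1% of all genes. The 33 called genes compare with 34.5% called in either direction among all genes. The arrays of the cell lines did not overlap for 49 genes (52.7%), against 54.4% of all genes. By median the 93 genes differed by -0.09 on the log2 scale and all genes by -0.01. Read by their brightest probes, 49 of the 93 genes were above background on no array, and 47 had no probe above background at all (Col2a1 and Col11a2 each had a second probe above background on 1 array). Of the 44 genes whose brightest probe was detected, 23 were above background only in D3 cells, 7 only in MIN6 cells and 14 in both. Of all 19057 genes read this way, 8204 were above background on no array. A further 1402 were above background only in D3 cells, 1392 only in MIN6 cells and 8059 in both. Among the 25 downregulated genes of the 93, 21 were above background on no MIN6 array and 4 on all 6 arrays. Lower bounds of the fold ranged from 1.09 to 41.0 over those 21 genes, and 6 of them were at least 10-fold. Counted by probe, 41 of 210 (19.5%) were lower and 12 (5.71%) higher, against 13.4% and 12.5% of all probes (25.9% in either direction). The arrays of the cell lines did not overlap for 84 of the 210 probes (40.0%), against 46.1% of all probes.

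**Figure D1:**
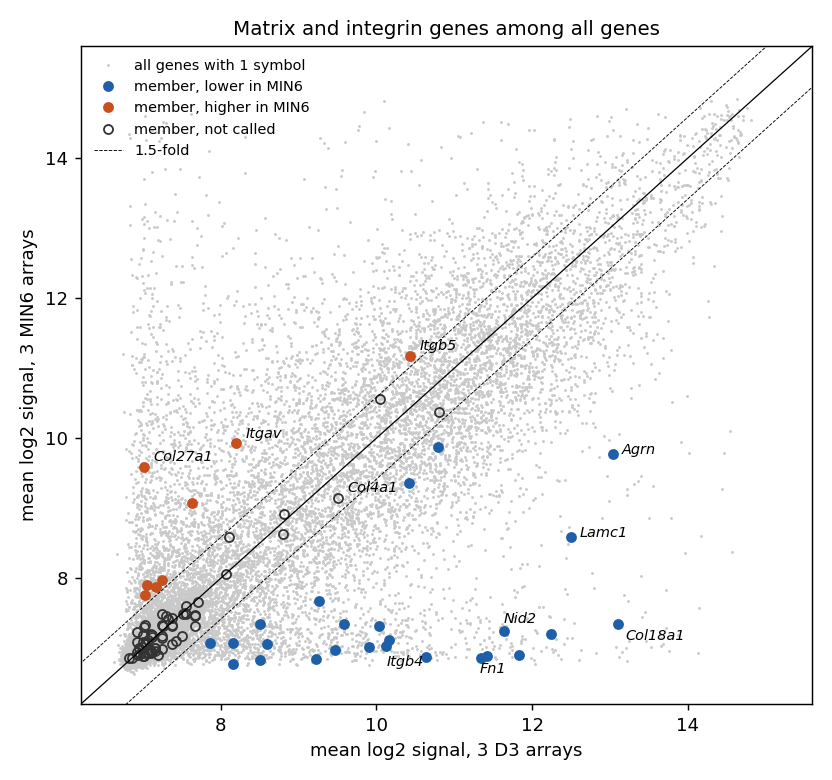
Mean log2 signal on the 3 D3 arrays (x axis) and the 3 MIN6 arrays (y axis) for all 19057 genes (grey points) and the 93 matrix and integrin genes (circles: blue lower, orange higher, open not called), with dashed lines at 1.5-fold. Of the 25 downregulated genes, 21 extend along the bottom of the plot, where MIN6 signal is near background, and 4 lie above it. Of the 8 upregulated genes, Col27a1 lies farthest from the diagonal, and several downregulated genes lie nearer to it than Col27a1 does.

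Laminin chains were downregulated in MIN6 cells for 5 of 9 genes (55.6%, against 17.5% of all genes), and none was upregulated. These 5 chains, Lama1, Lama5, Lamb1, Lamb2 and Lamc1, were above background on all D3 arrays. They include chains of laminin-111 (Lama1, Lamb1, Lamc1), the laminin of the early embryo, and of laminin-511 (Lama5, Lamb1, Lamc1). Lama2, Lamb3 and Lamc3 were above background on no array, and Lama4, an alpha chain of vascular laminins, was above background on 1 MIN6 array and was not called (adjusted p = 0.931). Lamc1, the gamma chain that most laminins share, had log2 signals of 12.49, 12.52 and 12.48 in D3 cells and 8.58, 8.49 and 8.67 in MIN6 cells. It was above background on all 6 arrays, the groups lay far apart, and the signal was 15.1-fold lower in MIN6 cells (difference -3.92, SE 0.10, adjusted p = 2.45e-18). Lama1, the alpha chain of laminin-111, had log2 signals of 10.51, 10.64 and 10.75 in D3 cells and 7.07, 6.81 and 6.74 in MIN6 cells. None of the MIN6 arrays was above background, and Lama1 was at least 7.41-fold lower (adjusted p = 3.30e-17). Lama5, the alpha chain of laminin-511, was at least 4.90-fold lower (adjusted p = 3.49e-15). Smaller bounds were found for the beta chains, at least 1.69-fold for Lamb2 (adjusted p = 1.98e-07) and at least 1.33-fold for Lamb1 (adjusted p = 1.74e-08).

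Collagen IV, the collagen of basement membranes, was read through the RNA of the genes of its 6 chains. Col4a3, Col4a4, Col4a5 and Col4a6 were above background on no array, which leaves Col4a1 and Col4a2, whose products assemble together in the most widespread form of collagen IV. Their genes lie head to head and share a promoter region. The RefSeq windows of 300 bases around their starts (GRCm38.p6) are shown because the pair shares regulatory sequence but gave different calls. The starts are 21 bases apart on opposite strands, and each lies downstream of the other, so the annotated 5' ends of the genes overlap. Capitals mark the 78 bases that both windows hold (chr8:11312777-11312854), read on each gene's own strand. They include bases after the start of each gene and are not only sequence upstream of both. The Col4a1 window is chr8:11312777-11313076 on the minus strand and the Col4a2 window chr8:11312555-11312854 on the plus strand.
Col4a1: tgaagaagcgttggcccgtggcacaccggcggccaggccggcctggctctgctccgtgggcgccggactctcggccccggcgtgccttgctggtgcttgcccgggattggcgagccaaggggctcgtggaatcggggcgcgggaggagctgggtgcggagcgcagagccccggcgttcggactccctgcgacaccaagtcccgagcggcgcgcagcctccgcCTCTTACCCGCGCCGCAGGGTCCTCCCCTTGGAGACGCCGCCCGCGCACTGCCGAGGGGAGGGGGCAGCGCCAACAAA
Col4a2: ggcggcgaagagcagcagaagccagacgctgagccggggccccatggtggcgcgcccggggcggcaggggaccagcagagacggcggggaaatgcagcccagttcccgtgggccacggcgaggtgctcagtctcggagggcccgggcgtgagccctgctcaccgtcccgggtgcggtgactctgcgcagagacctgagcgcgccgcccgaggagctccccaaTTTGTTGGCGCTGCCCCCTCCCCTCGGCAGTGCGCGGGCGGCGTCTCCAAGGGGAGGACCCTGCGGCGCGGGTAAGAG

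Col4a2 had log2 signals of 8.37, 8.66 and 8.47 in D3 cells and 6.83, 6.65 and 7.03 in MIN6 cells, where no array was above background. It was lower in MIN6 cells, by at least 1.69-fold (adjusted p = 4.64e-11). Col4a1 had log2 signals of 9.62, 9.51 and 9.40 in D3 cells and 9.08, 9.30 and 9.06 in MIN6 cells, all above background. The groups did not overlap, but the difference was 1.29-fold (-0.36, 95% interval -0.58 to -0.15, adjusted p = 0.00625) and was not called. Thus 1 chain of the pair kept a signal in MIN6 cells and the other was not above background there. Each gene has a single probe, and probes differ in their response, so the levels of the chains were not set against each other.

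Glycoproteins and proteoglycans of the matrix gave the largest share of downregulated genes. Of 9 genes, 6 were lower in MIN6 cells (66.7%, against 17.5% of all genes), and Lum, Tnc and Vtn were above background on no array. Nid2, a nidogen that links laminin to collagen IV, had log2 signals of 12.15, 12.27 and 12.29 in D3 cells and 7.11, 7.20 and 7.30 in MIN6 cells. No MIN6 array was above background, and Nid2 was at least 22.5-fold lower (adjusted p = 8.07e-20). The related Nid1 had log2 signals of 10.05, 10.08 and 10.35 in D3 cells and 7.10, 7.28 and 6.99 in MIN6 cells. Here too the groups lay apart with no MIN6 array above background, at least 5.34-fold lower (adjusted p = 1.39e-15). Hspg2, which encodes perlecan, a heparan sulfate proteoglycan, had log2 signals of 11.70, 11.67 and 11.54 in D3 cells and 7.01, 7.21 and 7.52 in MIN6 cells. Hspg2 was lower in MIN6 cells, by at least 14.9-fold (adjusted p = 1.03e-17), and the MIN6 arrays spread more (SD 0.26) than the D3 arrays (SD 0.09).

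Agrn encodes agrin, another heparan sulfate proteoglycan of basement membranes, and had log2 signals of 13.08, 13.05 and 12.98 in D3 cells and 9.882, 10.003 and 9.430 in MIN6 cells. Unlike the nidogens and perlecan it stayed above background on all MIN6 arrays, and the fold of 9.62 is therefore not a bound (difference -3.27, SE 0.12, adjusted p = 2.75e-15). That fold was computed without background subtraction. Fn1, which encodes fibronectin, a ligand of several integrins, had log2 signals of 11.79, 11.80 and 11.91 in D3 cells and 6.89, 6.87 and 6.94 in MIN6 cells. Fn1 was above background on no MIN6 array and was at least 17.0-fold lower (adjusted p = 6.95e-20). Sparc, a collagen-binding glycoprotein abundant in the parietal endoderm, had log2 signals of 11.39, 11.32 and 11.53 in D3 cells and 6.76, 6.95 and 6.97 in MIN6 cells. All D3 arrays were above and all MIN6 arrays below the detection limit, and Sparc was at least 12.7-fold lower (adjusted p = 6.93e-19).

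**Figure D2:**
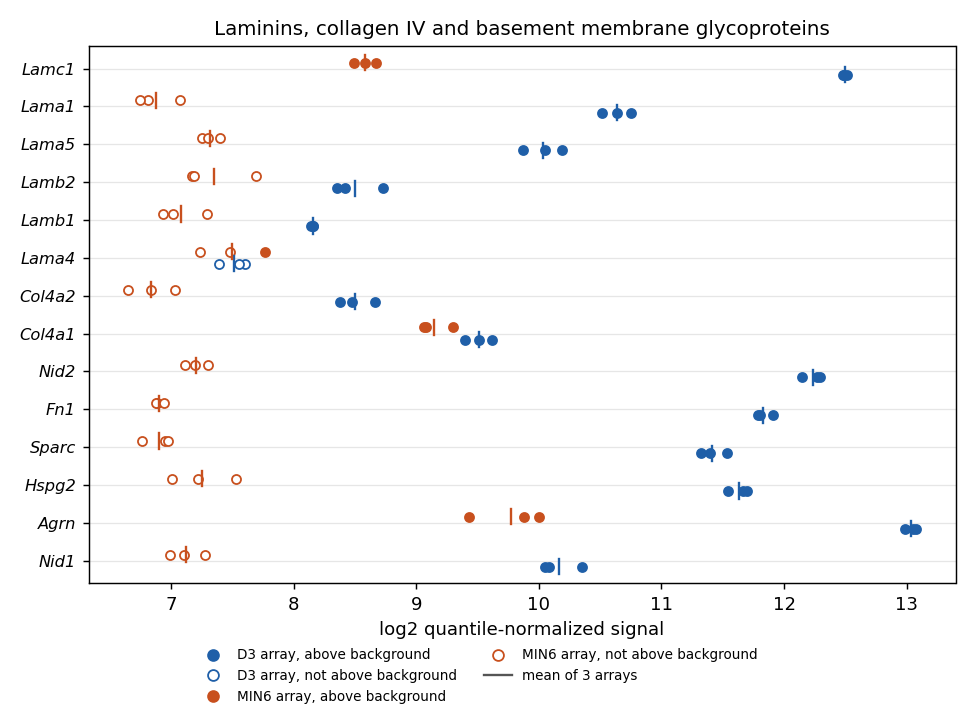
Log2 quantile-normalized signal (x axis) of 14 genes of laminins, collagen IV and basement membrane glycoproteins (rows) on each array (D3 blue, MIN6 orange; filled above background, open not; bar: mean of 3 arrays). Lamc1, Col4a1 and Agrn are filled in both cell lines, Lama4 is filled on 1 MIN6 array, and the other 10 genes are filled only in D3 cells.

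Collagens other than collagen IV were mostly at or below background. With collagen IV, 26 of 41 collagens were above background on no array, against 8204 of all 19057 genes. Fibrillar collagens, which make up the fibers of connective tissue, were above background for 2 of 11 genes by their brightest probes, 1 in each cell line, and for 4 by any probe. The additional probes, of Col2a1 (1 D3 array) and Col11a2 (1 MIN6 array), were not called. The interstitial chains Col1a1, Col1a2, Col3a1 and Col5a2 were above background on no array. Of 24 further collagen genes, 5 were lower and 3 higher in MIN6 cells, and 13 were above background on no array. Over all 41 collagens, 7 were lower (17.1%), 4 higher (9.76%) and 30 not called, with a median difference of -0.09. The share lower is close to that over all genes (17.5%), and the share higher is below the 17.1% over all genes.

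Col18a1, a collagen of basement membranes whose end fragment is endostatin, had log2 signals of 12.93, 13.27 and 13.10 in D3 cells and 7.33, 7.30 and 7.41 in MIN6 cells. It was at least 41.0-fold lower, the highest bound among the downregulated genes, with no MIN6 array above background (adjusted p = 2.81e-20). Col9a3, a chain of collagen IX, which sits on the surface of cartilage fibrils, had log2 signals of 11.41, 11.41 and 11.20 in D3 cells and 6.97, 6.68 and 6.92 in MIN6 cells. It was lower in MIN6 cells, by at least 12.1-fold (adjusted p = 1.55e-18). The other probes of Col9a3 were above background on no array and differed by 0.02 and 0.08, and averaged over its probes Col9a3 differed by -1.46 and was still called. Its partner chain Col9a2 had log2 signals of 8.77, 8.74 and 8.94 in D3 cells and 9.15, 8.91 and 8.68 in MIN6 cells, so that the groups overlapped. No difference was detected for Col9a2 (0.10, 95% interval -0.14 to 0.34, adjusted p = 0.584), and the other chain, Col9a1, was above background on no array. Col5a1, a chain that regulates the diameter of collagen fibrils, was lower in MIN6 cells, by at least 2.78-fold (adjusted p = 8.67e-15). Bounds for the 3 other collagens that were lower were at least 1.81-fold for Col26a1 (adjusted p = 5.75e-11), at least 1.34-fold for Col13a1 (adjusted p = 2.00e-10) and at least 1.09-fold for Col17a1 (adjusted p = 2.17e-06). Col13a1 and Col17a1 encode transmembrane collagens, and Col17a1 was above background on 2 of the 3 D3 arrays and was not called in the authors' processed values.

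A smaller set of collagens was upregulated in MIN6 cells. Col27a1, a fibrillar collagen of cartilage, had log2 signals of 6.90, 7.15 and 6.98 in D3 cells and 9.68, 9.65 and 9.45 in MIN6 cells. No D3 array was above background, and Col27a1 was higher in MIN6 cells, by at least 3.52-fold (adjusted p = 9.20e-15). Col16a1, which associates with other collagen fibrils, had log2 signals of 7.69, 7.60 and 7.59 in D3 cells and 9.12, 8.94 and 9.16 in MIN6 cells. It was likewise above background only in MIN6 cells, at least 2.46-fold higher (adjusted p = 5.59e-11). The other upregulated collagens lay close to background. Col22a1, a collagen of tissue junctions, had log2 signals of 7.14, 7.30 and 7.31 in D3 cells and 7.96, 7.85 and 8.11 in MIN6 cells, with a bound of at least 1.14-fold (adjusted p = 3.55e-06). Col8a1, a short-chain collagen of blood vessels and the eye, had log2 signals of 7.07, 7.03 and 6.97 in D3 cells and 7.72, 7.75 and 7.79 in MIN6 cells. It was called (adjusted p = 1.01e-06) but was above background on only 2 MIN6 arrays, and no bound above 1 could be given. Neither Col22a1 nor Col8a1 was called in the authors' processed values.

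Thrombospondins, secreted glycoproteins that bind matrix and cell receptors, gave no call. Thbs1, Thbs2 and Thbs4 were above background on no array. Thbs3 had log2 signals of 8.12, 8.27 and 7.92 in D3 cells and 8.76, 8.43 and 8.59 in MIN6 cells. The groups did not overlap, but the difference of 0.49 (SE 0.11, adjusted p = 0.00102) was 1.40-fold and stayed under the 1.5-fold threshold. With median scaling it was 0.63 and with normexp background correction 0.79, past the threshold in both cases.

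**Figure D3:**
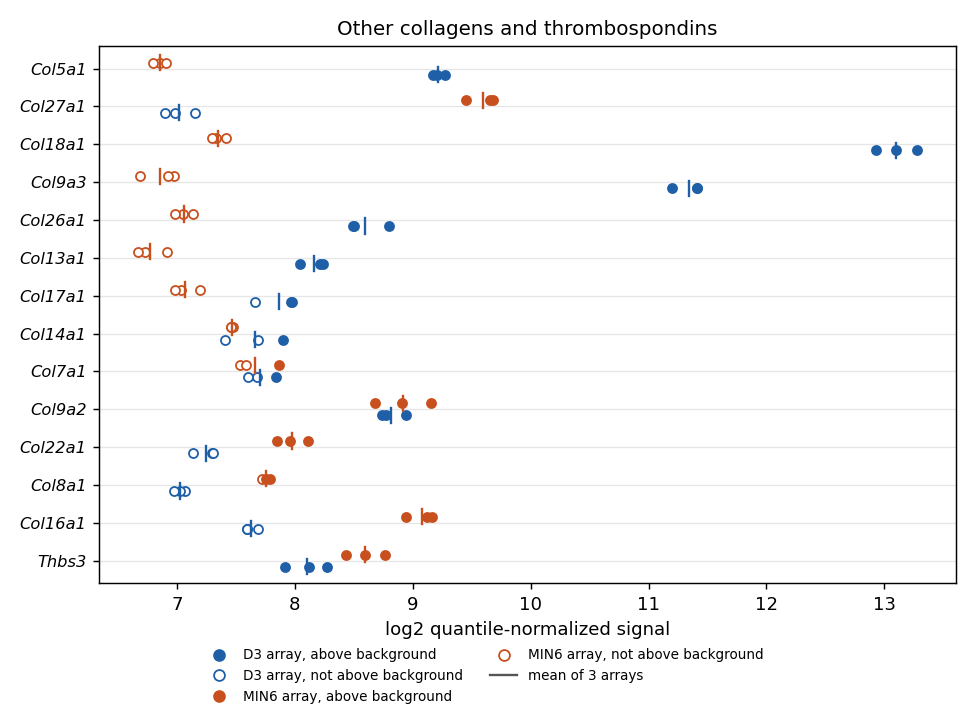
Log2 quantile-normalized signal (x axis) of the 14 collagen and thrombospondin genes outside collagen IV that were above background on at least 1 array (rows; D3 blue, MIN6 orange; filled above background, open not; bar: mean of 3 arrays). Col18a1 and Col9a3 are far to the right in D3 cells only, Col27a1 and Col16a1 are filled in MIN6 cells only, and the arrays of Col9a2 overlap.

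Integrin subunits were lower in MIN6 cells for 7 of 26 genes (26.9%) and higher for 3 (11.5%), against 17.5% and 17.1% of all genes. Alpha subunits gave 5 lower and 2 higher of 17, and beta subunits 2 lower and 1 higher of 9. Above background on no array were 13 of the 26 subunits, against 8204 of all 19057 genes. The 13 subunits were Itga1, Itga2, Itga2b, Itga7, Itga8, Itga11, Itgam, Itgax, Itgb2, Itgb2l, Itgb3, Itgb6 and Itgb8. Among them are Itga2b and Itgb3 of platelets, the leukocyte subunits Itgam, Itgax and Itgb2, and the collagen-binding Itga1, Itga2 and Itga11, whereas other subunits known from leukocytes (Itgal, Itgad, Itgae, Itgb7 and Itga4) were above background on at least 1 array. Itgb1, the beta subunit that pairs with the largest number of alpha subunits, had log2 signals of 9.02, 8.58 and 8.81 in D3 cells and 8.55, 8.80 and 8.53 in MIN6 cells. These overlapped, and the difference of -0.17 (95% interval -0.42 to 0.07) did not pass the test (adjusted p = 0.287).

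Among the laminin receptors, Itgb4, which pairs only with Itga6 and anchors epithelial cells to laminin, had log2 signals of 10.18, 10.06 and 10.15 in D3 cells and 7.14, 7.01 and 6.95 in MIN6 cells. No MIN6 array was above background, and Itgb4 was at least 5.22-fold lower (adjusted p = 1.46e-16). Itga6, its partner and also a partner of Itgb1, was above background on all 6 arrays and was 2.07-fold lower (difference -1.05, SE 0.12, adjusted p = 1.25e-07). That call belongs to its brightest probe. A second probe, also above background on all 6 arrays, differed by -0.10 (adjusted p = 0.507), and averaging all probes of Itga6 gave -0.26 and no call. All 3 probes of Itga6 were above background on some array, and they did not share a sign. The direction given for Itga6 therefore depends on the choice of probe. Itga3, the alpha subunit of another laminin receptor, was 1.89-fold lower and above background on all 6 arrays (difference -0.92, SE 0.10, adjusted p = 1.32e-07).

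Receptors for fibronectin and for cell surface ligands included further downregulated subunits. Itga5, which pairs with Itgb1 as the main fibronectin receptor, was lower in MIN6 cells, by at least 3.57-fold (adjusted p = 7.81e-14). Itga9, another partner of Itgb1, was at least 3.30-fold lower (adjusted p = 1.72e-14). Itgb7 and Itgae encode the subunits of the integrin that binds E-cadherin on epithelia and is best known from intraepithelial lymphocytes. Itgb7 had log2 signals of 10.02, 9.91 and 9.78 in D3 cells and 7.08, 6.97 and 7.02 in MIN6 cells, at least 4.47-fold lower (adjusted p = 6.27e-16). Its partner Itgae was at least 2.86-fold lower (adjusted p = 2.58e-11), and both were above background on all D3 arrays and on no MIN6 array. Itgal, a leukocyte alpha subunit, was above background on 3 D3 and 2 MIN6 arrays and differed by -0.01 (adjusted p = 0.970).

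Upregulated subunits were Itgav, Itgb5 and Itga4. Itgav and Itgb5 encode the subunits of a vitronectin receptor. Itgav had log2 signals of 8.34, 8.32 and 7.92 in D3 cells and 9.85, 9.85 and 10.07 in MIN6 cells. All 6 arrays exceeded background, and Itgav was 3.31-fold higher in MIN6 cells (difference 1.73, SE 0.12, adjusted p = 4.86e-11), although a second probe, also above background on all 6 arrays, differed by 0.56 and was not called. Averaged over all of its probes, Itgav differed by 0.47 and was not called. Itgb5 had log2 signals of 10.47, 10.50 and 10.34 in D3 cells and 11.11, 11.21 and 11.22 in MIN6 cells. The groups did not overlap, and Itgb5 was 1.67-fold higher (difference 0.74, SE 0.10, adjusted p = 1.21e-06). The ligand gene Vtn was above background on no array. Itga4, a receptor subunit for fibronectin and VCAM1, had log2 signals of 7.24, 6.84 and 7.44 in D3 cells and 7.71, 7.86 and 8.06 in MIN6 cells. It was at least 1.07-fold higher (adjusted p = 0.000108), above background on only 2 MIN6 arrays, and without D3 replicate 2 the fitted difference was 0.55 and the call was lost.

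Of the 4 genes with an integrin name that encode no subunit, 1 was called. Itgbl1, a secreted protein with repeats like those of beta subunits, had log2 signals of 6.89, 7.31 and 6.98 in D3 cells and 7.86, 8.02 and 7.83 in MIN6 cells. It was higher in MIN6 cells, by at least 1.09-fold (adjusted p = 1.72e-06) and was not called in the authors' processed values. Itgb3bp, which encodes a centromere protein, had log2 signals of 10.79, 10.90 and 10.72 in D3 cells and 10.46, 10.40 and 10.25 in MIN6 cells, a separation of 1.35-fold (-0.43, adjusted p = 0.00109) that was not called. Itgb1bp1, which binds the cytoplasmic tail of Itgb1, had log2 signals of 9.98, 10.04 and 10.13 in D3 cells and 10.78, 10.48 and 10.42 in MIN6 cells. Its brightest probe differed by 0.51 (1.43-fold, adjusted p = 0.000428) and was not called. A second probe for the same transcript accession, above background on all 6 arrays, differed the other way and was 2.72-fold lower in MIN6 cells (difference -1.44, adjusted p = 6.07e-11), so no direction can be given for Itgb1bp1.

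**Figure D4:**
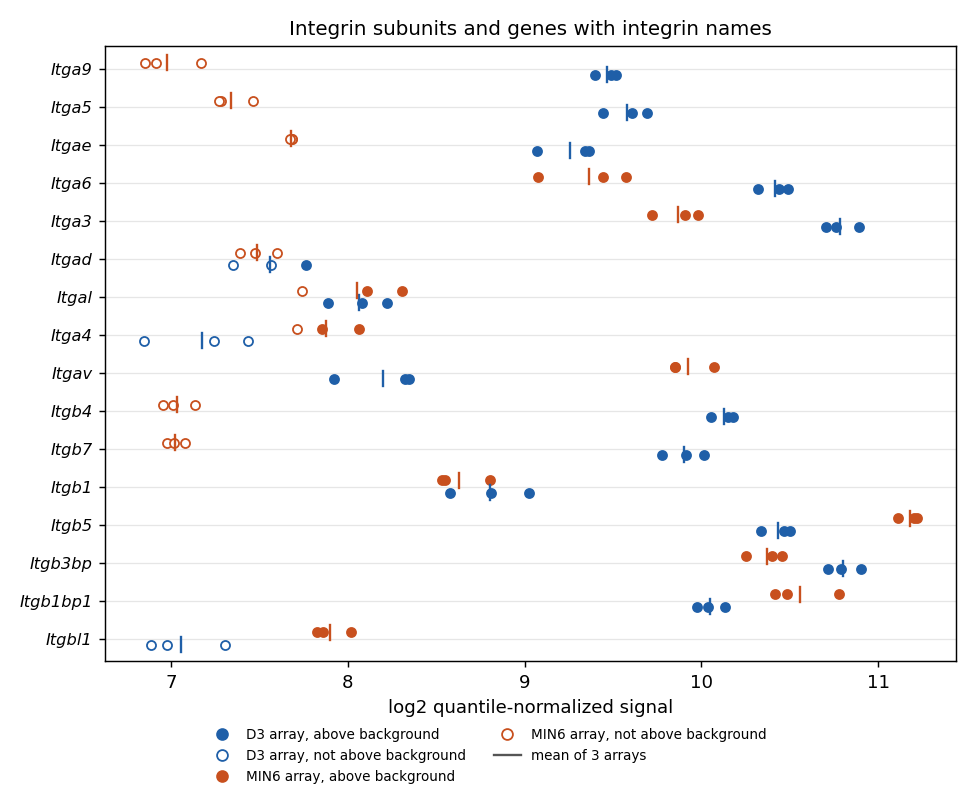
Log2 quantile-normalized signal (x axis) of 16 integrin subunit genes and genes with integrin names that were above background on at least 1 array (rows; D3 blue, MIN6 orange; filled above background, open not; bar: mean of 3 arrays). Itgb4 and Itgb7 are filled in D3 cells only, Itgav and Itgb5 lie further right in MIN6 cells, and the arrays of Itgb1 overlap.

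More than 1 probe of a gene was above background for 18 genes (43 probes), which allowed the differences to be compared within a gene. All such probes gave the same call for 15 genes and the same sign for 16, the exceptions in sign being Itga6 and Itgb1bp1. A probe detected in only 1 cell line is almost bound to be higher there, so the filter largely sets this agreement. Over all matrix and integrin genes, 71 probes were above background on some array. Of these, 36 were so only in D3 cells, 13 only in MIN6 cells and 22 in both. Of all 45281 probes, 2815 were above background only in D3 cells, 3071 only in MIN6 cells and 14154 in both. The agreement between probes is thus no independent check of the calls, and it was not counted over all genes. Both probes of Lamc1 were above background on all 6 arrays and differed by -3.92 and -4.03. Other genes were detected in only 1 cell line, so that each probe gives a bound and sizes cannot be compared between probes. The 4 probes of Fn1 were all called lower, with bounds of at least 17.0-, 3.35-, 2.56- and 1.11-fold. The 3 probes of Col18a1 were also all called lower, with bounds of at least 41.0-, 4.51- and 1.12-fold. Both probes of Hspg2 were lower by at least 14.9- and 11.5-fold. All 3 probes of Col27a1 were called higher, and none was above background on a D3 array. Probes above background on no array entered none of these counts.

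**Figure D5:**
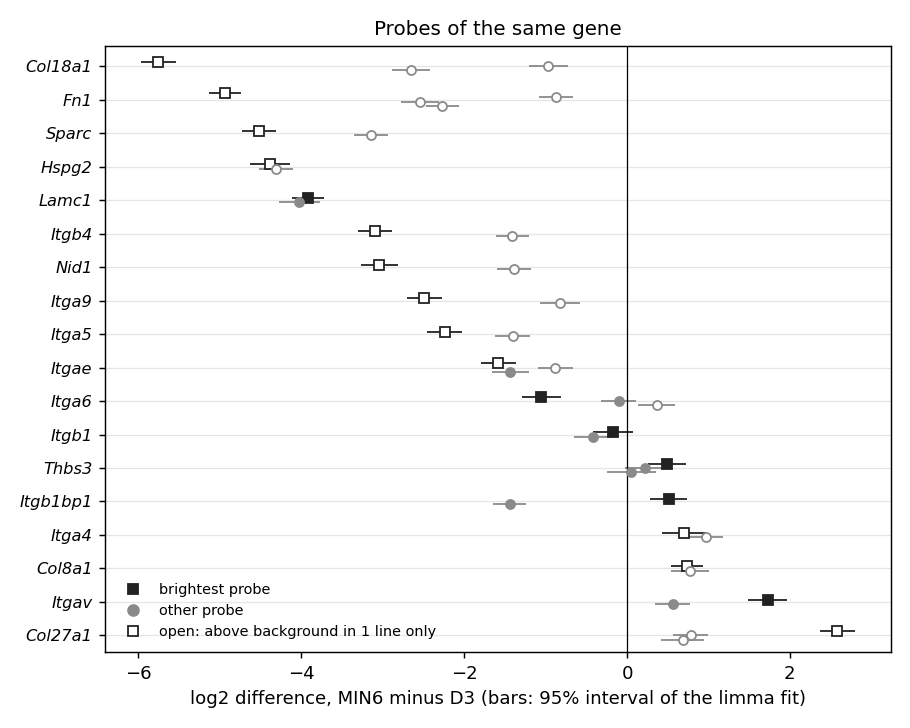
Log2 difference, MIN6 minus D3 (x axis), of every probe above background on at least 1 array for the 18 genes with more than 1 such probe (rows; squares: brightest probe; circles: other probes; open: above background in 1 cell line only; bars: 95% interval of the limma fit). For open symbols the fitted difference is set against a signal not above background and gives a direction rather than a size. Probes of 16 genes lie on 1 side of 0, and probes of Itga6 and Itgb1bp1 lie on both sides.

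Promoter sequence was examined for the genes in the RefSeq windows of GRCm38.p6 (250 bases before to 50 after the start). Windows were found for 68 of the 93 genes, 76 in all. The GC box, searched as GGGCGG on both strands, was in 57.9% of these windows against 35.7% of all 32851 windows. It was in 12 of 19 windows of downregulated genes, in 7 of 7 windows of upregulated genes and in 25 of 50 windows of genes not called. The TATA box, searched as TATAAA, was in 11.8% of the windows against 13.6% of all windows, and the CCAAT box, searched as CCAAT, in 27.6% against 37.4%, again on both strands. A match is a description of the letters and not a binding site. Windows are shown for called genes with a single window and the largest differences, with GC boxes in capitals. These were Hspg2 and Sparc among the downregulated genes and Col27a1 among the upregulated genes. They were chosen by difference and not by the motif. Hspg2 (chr4:137468553-137468852, plus strand) holds 5 GC boxes, Sparc (chr11:55420031-55420330, minus strand) holds 0, and Col27a1 (chr4:63215162-63215461, plus strand) holds 2.
Hspg2: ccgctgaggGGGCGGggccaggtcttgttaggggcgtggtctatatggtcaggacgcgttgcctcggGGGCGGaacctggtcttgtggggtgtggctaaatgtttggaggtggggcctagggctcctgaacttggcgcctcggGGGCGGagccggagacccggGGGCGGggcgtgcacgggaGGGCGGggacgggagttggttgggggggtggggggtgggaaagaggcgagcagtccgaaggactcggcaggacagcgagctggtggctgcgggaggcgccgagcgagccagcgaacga
Sparc: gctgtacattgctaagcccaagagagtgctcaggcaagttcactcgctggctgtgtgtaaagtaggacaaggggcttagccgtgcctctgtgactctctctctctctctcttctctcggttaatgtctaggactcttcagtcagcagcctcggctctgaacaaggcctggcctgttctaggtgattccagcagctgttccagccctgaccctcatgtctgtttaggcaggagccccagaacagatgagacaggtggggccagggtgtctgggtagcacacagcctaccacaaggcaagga
Col27a1: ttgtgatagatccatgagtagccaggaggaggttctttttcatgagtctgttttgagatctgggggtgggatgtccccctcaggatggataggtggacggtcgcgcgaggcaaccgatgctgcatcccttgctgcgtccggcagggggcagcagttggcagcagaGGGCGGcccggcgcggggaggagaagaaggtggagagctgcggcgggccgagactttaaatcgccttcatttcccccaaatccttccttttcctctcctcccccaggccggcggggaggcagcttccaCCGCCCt

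Genes that fold, crosslink and mature collagen were downregulated in MIN6 cells for 7 of 20 measured genes (35.0%, against 17.5% of all genes) and upregulated for 2 (10%, against 17.1%), with a median difference of -0.28. Serpinh1, the collagen chaperone HSP47, was at least 15.9-fold lower (adjusted p = 1.21e-19). Pcolce, which enhances procollagen C-proteinase, was at least 7.70-fold lower (adjusted p = 1.41e-16), and Loxl1, a crosslinking enzyme, at least 3.49-fold lower (adjusted p = 7.94e-15). In the other direction Bmp1, the procollagen C-proteinase itself, was 23.6-fold higher (adjusted p = 3.47e-18). P4hb, a subunit of prolyl 4-hydroxylase and also a general protein disulfide isomerase, was 2.89-fold higher (adjusted p = 1.53e-11).

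Matrix proteases and their inhibitors gave 7 lower (30.4%, against 17.5% of all genes) and 2 higher (8.70%, against 17.1%) of 23 measured genes (median -0.01). Timp1, an inhibitor of metalloproteinases, was lower in MIN6 cells, by at least 13.4-fold (adjusted p = 1.67e-18). Membrane-bound Mmp14 was at least 7.48-fold lower (adjusted p = 1.80e-17), Mmp11 at least 6.49-fold lower (adjusted p = 2.93e-17) and Mmp17 at least 5.98-fold lower (adjusted p = 2.81e-16). A protease and an inhibitor were thus both among the genes that were lower.

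Cytoplasmic proteins that link integrins to actin or relay their signals gave 11 lower (40.7%, against 17.5% of all genes) and 3 higher (11.1%, against 17.1%) of 27 genes (median -0.26), and 5 higher with median scaling. Src, a tyrosine kinase, was 3.35-fold lower in MIN6 cells (adjusted p = 8.10e-12), and Tns1, a tensin, at least 2.02-fold lower (adjusted p = 1.14e-11). The upregulated genes included Ilk, integrin-linked kinase, 3.43-fold higher (adjusted p = 6.34e-12), and its binding partner Parva, alpha-parvin, 7.05-fold higher (adjusted p = 6.91e-15). Of the genes in this group, Itgb1bp1 is also among the 93.

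Receptors other than integrins and carriers of glycosaminoglycan chains were higher in MIN6 cells for 6 of 19 genes (31.6%, against 17.1% of all genes) and lower for 2 (10.5%, against 17.5%, and 4 genes with normexp background correction), with a median of 0.13. Cd47, a thrombospondin receptor, was 8.41-fold higher (adjusted p = 1.59e-16). Ddr1, a collagen receptor tyrosine kinase, was 5.92-fold higher (adjusted p = 1.23e-13), and Cd44, a hyaluronan receptor, at least 5.27-fold higher (adjusted p = 2.70e-16). Gpc3, a glypican, was at least 8.11-fold lower (adjusted p = 3.57e-18).

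Other matrix proteins gave 6 lower (11 with normexp, 3 in the authors' processed values) and 5 higher of 43 genes, and 31 were above background on no array. These shares of 14.0% lower and 11.6% higher are below the 17.5% and 17.1% of all genes. Egfl7, a secreted protein of the vessel wall, was 9.90-fold lower in MIN6 cells (adjusted p = 9.15e-17). Fbln1, a basement membrane fibulin, was at least 7.20-fold lower (adjusted p = 5.50e-17), and Tgfbi, which binds collagens and integrins, at least 6.26-fold lower (adjusted p = 6.38e-16). Spock2, a testican proteoglycan, was at least 17.2-fold higher (adjusted p = 2.89e-19). Netrins and other genes with laminin-type domains gave 1 higher (Megf9) and 1 lower (Ntn5) of 6. These shares of 16.7% each are close to those over all genes.

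Markers of other cells that make these matrix proteins were read in the same way. Of 15 markers of primitive and parietal endoderm, the lineage that secretes much of the basement membrane of the early embryo, Dab2, Hhex and Gata6 were lower in MIN6 cells, Foxa2 and Plat were higher, and 9 were above background on no array, among them Gata4, Sox17, Sox7, Pdgfra and Afp. The shares of 20% lower and 13.3% higher compare with 17.5% and 17.1% of all genes. Gata6 was above background on all D3 arrays at a mean log2 signal of 8.13, and Dab2 at 9.15. The summed normalized signal of the list was between 3556 and 3766 on the D3 arrays and between 3453 and 3615 on the MIN6 arrays. Sums of this kind, here and below, include the background signal of undetected genes. This sum also adds genes that differed in opposite directions, so it does not compare the endoderm content of the cell lines. Whether endoderm-like cells among the D3 cells contributed to the laminin, nidogen and Sparc signal was not tested.

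Of 17 fibroblast and feeder cell markers, Fn1, Vim, Acta2 and Thy1 were lower in MIN6 cells (23.5%, against 17.5% of all genes) and none was higher. The other 13 were above background on no array, including Col1a1, Col1a2, Col3a1, Lum, Dcn, Pdgfrb and Postn. The summed signal was between 8204 and 8620 on the D3 arrays and between 2216 and 2312 on the MIN6 arrays, and 5 genes of this list, Fn1 among them, are also among the 93. Without Fn1 the sum was between 4632 and 4931 on the D3 arrays and between 2098 and 2195 on the MIN6 arrays. The part of Vim-, Acta2- or Thy1-positive cells in the fibronectin signal was not tested. Of 9 endothelial markers, Pecam1, Vwf and Tek were lower (33.3%, against 17.5% of all genes) and Esam was higher (11.1%, against 17.1%). Cdh5, Tie1, Emcn and Kdr were above background on no array. The endothelial sums were 2833 to 2965 on the D3 arrays and 2800 to 3060 on the MIN6 arrays. Of 6 blood cell markers none was called, against 34.5% of all genes, and 5 were above background on no array. The blood cell sums were 831.9 to 926.5 on the D3 arrays and 780.4 to 809.7 on the MIN6 arrays. Mesoderm markers gave 1 lower of 7 (14.3%) and none higher, and acinar and ductal markers 1 lower and 1 higher of 9 (11.1% each). All of these shares are below the 17.5% lower and 17.1% higher over all genes.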

How the data were processed

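The authors deposited a table of non-normalized signal intensity for each probe on each of 6 arrays (3 D3, 3 MIN6), without background subtraction. Beside it, a detection score was deposited for each probe and array, headed as a p-value but holding 1 minus p, which was converted back. The authors also deposited processed values on a log2-like scale, quantile-normalized with lumi by their methods. How they were transformed is not stated. Across probes they correlated at r = 0.994 with the log2 signals used here, and they entered only an alternative.

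Intensities were quantile-normalized, taken to log2 and fitted in R 4.3.3 by lmFit and eBayes of limma 3.58.1, with no filter and no block (statmod 1.5.0 served the robust prior). The methods' test was Student's t-test at 1.5-fold. Of the probes, 34885 have 1 gene symbol in the platform annotation, 18 several and 10378 none. The Entrez IDs of all 93 genes have the same symbol in the RefSeq table. Within a cell line arrays correlated at r = 0.993 to 0.994 across probes, between cell lines at r = 0.835 to 0.838. For a bound, each array without detection was given its lowest normalized signal above background, or the probe's own signal if higher. The steps were tested on simulated data. Python 3.11.15 with matplotlib 3.10.9 and numpy 2.4.6 drew the figures.

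Values on each array are given for up to 12 called genes in each direction with the largest difference and for 6 genes above background on all arrays with the smallest, and up to 4 genes are named per list, the largest changes. Values on each array were added for Col4a2, and P4hb was also named, both after their values were seen. The genes, lists and tests were chosen with earlier results of these data known. List members that no probe names are not analysed here. Alternatives were normexp, median scaling, cyclic loess, detection filters, a trended robust prior, a replicate block, the authors' values, other probe choices, other fold thresholds, the t-test and leaving out each array.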

Additional observations from a re-analysis of the deposited data

How the results depend on the processing

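Of the 33 called genes, none reversed under any alternative. The number downregulated was between 23 and 28, and 31 with no fold threshold, against 25. The number upregulated was 4 in the authors' processed values, 4 with the mean of all probes of a gene, 3 at a threshold of 2-fold and 13 with no fold threshold, against 8. The number of all genes called was 4231 at 2-fold, against 6580. Leaving out each array in turn gave 7 to 9 upregulated, 25 downregulated and 6586 to 6623 called genes. Calls lost were Col17a1, Col22a1, Col8a1, Itga4 and Itgbl1 in the authors' values, Col17a1, Col22a1, Itga4, Itga6, Itgav and Itgbl1 with the mean of probes, and Itga4 with the t-test after Benjamini-Hochberg adjustment. At a threshold of 2-fold, 7 calls were lost: Col17a1, Col22a1, Col8a1, Itga3, Itga4, Itgb5 and Itgbl1. With detection p under 0.01 required on at least 3 arrays, 3 of the called genes were not tested. Reading each gene by its probe with the largest difference turned Itgb1bp1 to -1.44, by construction the other probe. Fitted folds moved by over 1.5 times for 28 called genes with normexp, all larger, for 17 in the authors' values and for 13 with the mean of probes, all smaller. The causes were not tested. Same-numbered samples showed no shared deviation (correlations 0.0187, -0.00239 and -0.0406 over 20040 probes). With 3 arrays per cell line this cannot exclude that samples of the same number were handled together. A replicate block gave 25 downregulated, 8 upregulated and 6580 called genes, with no call of the 33 changed. A slide block was not run, since the files name no slide. Genes near the detection limit have only bounds, and 49 of the 93 had no fold by their brightest probe. Among these, Col2a1, Col11a1 and Col8a2 were called lower with normexp, and Col2a1 also by its probe with the largest difference.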
